A study of Mus musculus with 20 samples.

Results

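Vision in dim light starts in the rods, and 9 genes of the rod phototransduction cascade were followed here in the mouse retina. The 9 genes were listed by name, out of 35006 genes counted in each library. Gnat1 encodes the alpha subunit of rod transducin. Pde6a, Pde6b and Pde6g encode the catalytic and inhibitory subunits of the rod phosphodiesterase, and Cnga1 and Cngb1 the subunits of the rod cyclic nucleotide-gated channel. The last were Sag (arrestin) and Grk1 (rhodopsin kinase), which act in shutting the response off, and Rcvrn (recoverin), which holds the kinase in check. Every one of the 9 was above 1 CPM (counts scaled to a total of 1e+06 gene counts per library) in all 20 libraries.

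In the dark, cyclic GMP holds the channel of the rod outer segment open and sodium and calcium flow in. Light activates rhodopsin, rhodopsin activates transducin, and transducin lifts the inhibitory subunits from the phosphodiesterase, which then hydrolyses cyclic GMP so that the channel closes. Recovery requires phosphorylation of rhodopsin by the kinase, held in check by recoverin at high calcium, and capping by arrestin. Rods are the most numerous cells of the mouse retina, and loss-of-function mutations in several of these genes cause retinal degeneration or night blindness.

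The study asked whether NACET (N-acetylcysteine ethyl ester, a membrane-permeable precursor of cysteine and glutathione) acts on the ageing retina, and it sequenced polyA RNA from retinas of wild-type C57BL/6J mice, an inbred strain. The 4 groups were 4 young controls, 6 young mice on NACET, 4 old controls and 6 old mice on NACET. NACET was given in the drinking water for 5 days, at a concentration set to reach 50 mg/kg each day from average water intake. Sample titles give ages of 119 days for young and 668 days for old controls. On NACET, 4 of the young were aged 129 days and 2 were aged 119 days, and the old comprised 2 each of 668, 581 and 574 days. For young NACET replicate 6 the title has 119 days where its batch tag has 129. In each young group 2 mice were labelled female, all old mice were labelled male, and the methods of the study speak of males only.

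The libraries held 17.7 to 31.1 M gene counts each (M, 1e+06 counts), and the smallest count of any of the 9 genes in any library was 10773 reads (Cngb1, old control replicate 1), for which counting alone gave a coefficient of variation of 0.963%. Counts of Xist and of Y-linked genes matched the labelled sex in 19 of 20 libraries. In old control replicate 4, which is labelled as male, 59555 reads fell on Xist and 1 on Y-linked genes. A list of 11 lens genes summed to 12646 CPM in old NACET replicate 1 and to between 1.37 and 25.9 CPM in the other libraries. A list of 9 corneal epithelium genes summed to between 3.74 and 596 CPM, the highest in old control replicate 2, and 10 pigment epithelium genes summed to between 38.6 and 273 CPM. The defining genes of Muller glia and of bipolar cells, 8 in each list, were above 1 CPM in every library.

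Gnat1 dominated the group. It ranked number 2 of the 35006 genes by mean CPM, and Sag ranked 7, Pde6a 9, Pde6b 12, Grk1 13, Pde6g 24, Cnga1 56, Rcvrn 75 and Cngb1 131. Per kilobase of annotated exon, the mean level over the 20 libraries was 8053 CPM per kb for Gnat1, followed by 951 for Pde6g, 906 for Rcvrn, 888 for Pde6a, 702 for Sag, 653 for Pde6b, 434 for Grk1, 255 for Cnga1 and 128 for Cngb1. Gnat1 lay above the next gene in 20 of 20 libraries. Pde6g and Rcvrn did not separate (14 of 20), nor did Rcvrn and Pde6a (10 of 20) or Sag and Pde6b (16 of 20), while every other step of the order held in all 20 libraries.

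The middle of this order depended on the length used. Sag has 8894 bases of exon over its 8 annotated transcripts but 4727 in its longest transcript, and divided by the latter it moved from rank 5 to rank 2, at 1321 CPM per kb. Cnga1, with 4562 and 2739 bases, moved to 425 CPM per kb, next to Grk1 at 434. Gnat1 and Cngb1 stayed first and last by either length.

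Promoter sequences from RefSeq (build GRCm38.p6) were matched by symbol for 5 of the 9 genes, Sag, Cnga1, Pde6b, Grk1 and Cngb1, and not for Gnat1, Pde6a, Pde6g and Rcvrn. The 250 bases before the transcription start were searched on both strands for TAATCC, the core bound by the photoreceptor homeodomain factor CRX, for TGCTGA, part of the element of the rod leucine zipper factor NRL, and for the TATA box (TATAAA). The CRX core was in 3 of the 5 promoters, against 6.25% of all 32851 promoters of this length. The NRL element was in 2 of 5, against 16.1%, and the TATA box in 1 of 5, against 12.4%. Shown here are Sag and Grk1, whose log2 CPM followed each other least over the 20 libraries, and Cngb1, which followed most of the others. Each is written 5′ to 3′ towards the start, with matches in capitals.
Sag promoter, chr1:87803430-87803679, plus strand: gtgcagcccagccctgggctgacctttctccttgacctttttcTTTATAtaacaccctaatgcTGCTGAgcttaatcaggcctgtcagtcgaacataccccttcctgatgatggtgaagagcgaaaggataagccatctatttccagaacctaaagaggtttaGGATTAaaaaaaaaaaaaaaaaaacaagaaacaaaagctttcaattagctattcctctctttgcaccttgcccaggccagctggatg
Grk1 promoter, chr8:13404831-13405080, plus strand: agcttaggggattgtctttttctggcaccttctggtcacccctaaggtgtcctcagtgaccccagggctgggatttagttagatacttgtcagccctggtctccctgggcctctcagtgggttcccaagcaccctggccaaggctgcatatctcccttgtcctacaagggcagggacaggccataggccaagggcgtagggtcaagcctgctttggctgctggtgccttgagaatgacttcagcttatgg
Cngb1 promoter, chr8:95306586-95306835, minus strand: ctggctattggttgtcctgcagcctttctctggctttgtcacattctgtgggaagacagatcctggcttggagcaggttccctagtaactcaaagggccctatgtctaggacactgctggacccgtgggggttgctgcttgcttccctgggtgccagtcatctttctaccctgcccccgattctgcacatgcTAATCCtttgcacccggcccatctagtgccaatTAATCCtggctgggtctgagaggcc
In Sag the matches were the TATA box on the opposite strand 207 bases before the start, the NRL element at 187 and the CRX core on the opposite strand at 87. Cngb1 had the CRX core at 58 and at 25 bases before the start, and Grk1 had no match to the 3 motifs. Of the promoters not shown, Cnga1 had the CRX core at 228 and Pde6b the NRL element at 8 bases before the start. A match of this kind describes the letters and was not tied to binding or to level.

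All 9 are protein-coding genes. In the mm9 assembly, Gnat1 lies on the minus strand at chr9:107576808-107581923, Pde6b on the plus strand at chr5:108817410-108861416, Pde6g on the minus strand at chr11:120308919-120314814 and Pde6a on the plus strand of chromosome 18. Cnga1 lies on the minus strand at chr5:72994935-73033991 and Cngb1 on the minus strand at chr8:97762945-97808081. Sag lies on the plus strand at chr1:89700255-89741733, Rcvrn on the plus strand at chr11:67508828-67516835 and Grk1 on the plus strand at chr8:13405081-13421945. Reads were counted over exons without regard to strand. Pde6a and Rcvrn each overlap a gene of the opposite strand (Rps2-ps10 and Glp2r), with 0 shared exon bases, and the other 7 overlap no annotated gene.

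**Figure D1:**
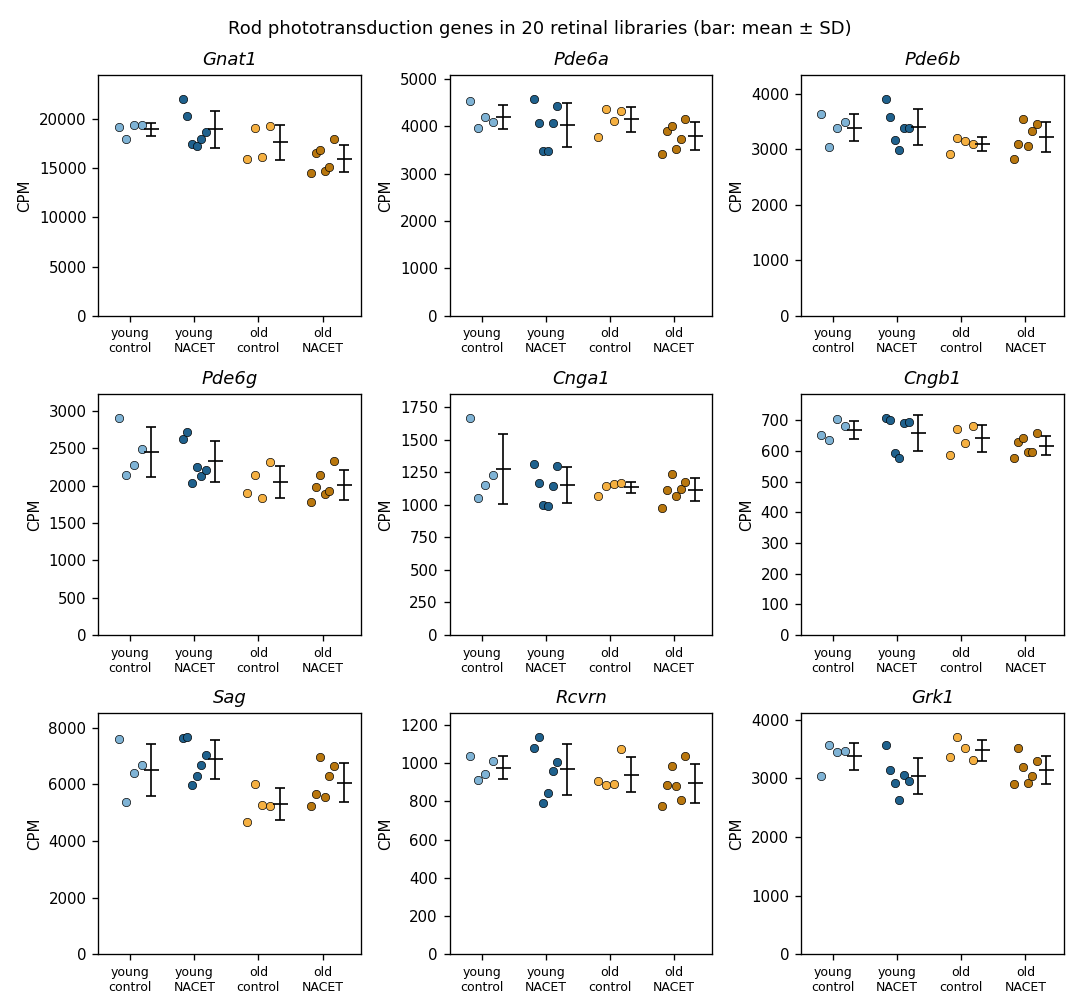
CPM of each gene (vertical axis, from 0) in the 4 groups, 1 point per library, with the group mean and SD as a bar beside the points. The groups overlapped for each of the 9 genes, and the widest spread within a group relative to its mean was for Cnga1 in young controls, where replicate 1 lay at 1668 CPM.

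The first comparison, old against young controls, addressed ageing without treatment, although 2 of the 4 young controls were labelled female and all old controls male. With labelled sex as a covariate 0 of the 9 genes were called, as without it. This count cannot show how far sex entered the estimates, and the label of old control replicate 4 did not match its Xist reads. All 9 estimates were below 0, from -0.35 (Sag) to -0.0048 (Grk1) on the log2 scale. Their median was -0.15, against -0.01 over all 16484 genes tested, of which 51.8% were below 0. Scaled by total gene counts only, 8 of the 9 were below 0, with a median of -0.11 and Grk1 at 0.04. Grk1 changed sign in 10 of 22 alternatives. The 9 genes mostly varied together across libraries, so their signs are not independent of each other. None of the 9 was called at an edgeR adjusted p under 0.05, where 1.42% of all genes were. Sag and Pde6g were lower at an unadjusted p under 0.05, a limit that 16.3% of all genes passed in either direction and 7.24% in the lower direction. The CPM ranges of the 2 groups overlapped for all 9 genes, and 11.3% of all genes had ranges that did not. In whole retina, fewer rods and less RNA per rod cannot be told apart.

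Sag, the arrestin that binds phosphorylated rhodopsin, had 7590.2, 5367, 6392 and 6686 CPM in the young controls and 4659, 6025, 5278 and 5226 CPM in the old controls. All but 1 of the young controls lay above the old ones, and young control replicate 2 fell among them. The means were 6509 ± 916 CPM (SD, n = 4) and 5297 ± 560.5 CPM (SD, n = 4), and the log2 fold change was -0.35 ± 0.12 (SE), with a 95% interval of -0.62 to -0.08 and an edgeR adjusted p of 0.193. Pde6g, the inhibitory gamma subunit, had 2907, 2142, 2281 and 2493 CPM in young and 1909.9, 2146, 1841 and 2315 CPM in old controls. The highest value was that of young control replicate 1, and the groups overlapped. The log2 fold change of Pde6g was -0.31 ± 0.12 (SE), with a 95% interval of -0.57 to -0.05 and an edgeR adjusted p of 0.227. Without young control replicate 1 the log2 fold changes were -0.20 for Pde6g and -0.25 for Sag, and none of the 9 then passed an unadjusted p under 0.05.

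The catalytic subunits differed by -0.07 (Pde6a) and -0.18 (Pde6b) on the log2 scale, Gnat1 by -0.15, the channel subunits by -0.22 (Cnga1) and -0.11 (Cngb1) and Rcvrn, the calcium sensor of the kinase, by -0.10. Without young control replicate 1, Cnga1 was at -0.05, Pde6a at -0.01 and Rcvrn at -0.06. Grk1 was at 3034, 3563, 3439 and 3459 CPM in young and 3365, 3698, 3514 and 3314 CPM in old controls, with a log2 fold change of -0.0048 ± 0.07 (SE), with a 95% interval of -0.17 to 0.16 and an edgeR adjusted p of 0.984. Its estimate was the one closest to 0, and without young control replicate 1, when it was -0.04, that of Pde6a was closer. Without old control replicate 4, the library with Xist, 0 of the 9 genes were called and the estimates ran from -0.38 to 0.01.

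**Figure D2:**
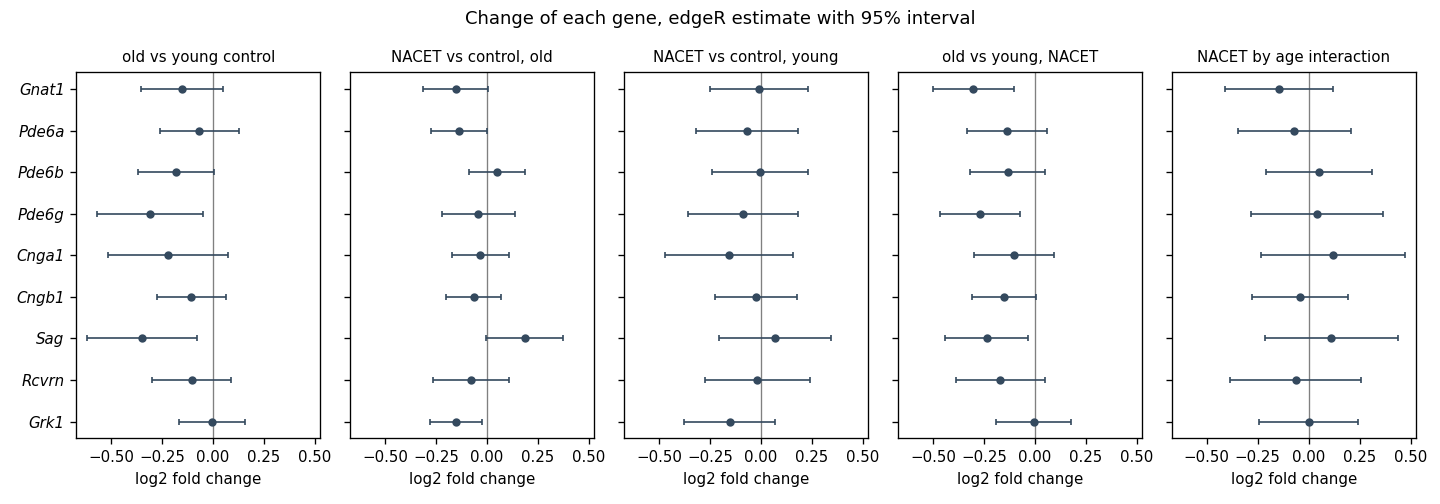
Log2 fold change of each gene (horizontal axis) in the 5 comparisons, 1 panel each, as the edgeR estimate with its 95% interval beside a vertical line at 0. In both comparisons of old with young mice all 9 points lay below 0, and no gene was called in any panel after adjustment over all genes tested. The comparisons share control groups and are not independent of each other.

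The second comparison was NACET against control in old mice. Here 7 of the 9 estimates were below 0 and 2 above, with a median of -0.07 against 0.002 over all genes, of which 49.2% were below 0. None was called, against 0.543% of the 16562 genes tested, and 1 (Grk1, lower) passed an unadjusted p under 0.05, against 14.4% of all genes in either direction and 7.77% in the lower direction. The CPM ranges overlapped for all 9, and 3.57% of all genes did not overlap. The gene with the highest estimate was Sag, and those with the lowest were Gnat1, Grk1 and Pde6a.

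Sag, at 4659, 6025, 5278 and 5226 CPM in old controls, had a lowest value of 5225, a median of 5973 and a highest value of 6960.2 CPM in old NACET mice. The upper part of the NACET group lay above all controls and the lower part among them. The log2 fold change of Sag was 0.18 ± 0.09 (SE), with a 95% interval of -0.0038 to 0.37 and an edgeR adjusted p of 0.356. In the 668-day mice alone (4 controls and 2 NACET), it was 0.03 ± 0.10 (SE), and the 3 highest of the 6 NACET values were from mice of 574 and 581 days. There were no controls of those ages, so NACET and age cannot be told apart in those mice.

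Grk1 had 3365, 3698, 3514 and 3314 CPM in old controls and a lowest value of 2906, a median of 3115 and a highest value of 3522 CPM in old NACET mice. Replicate 2 of the NACET mice lay among the controls, and the other 5 lay below all of them. The log2 fold change was -0.15 ± 0.06 (SE), with a 95% interval of -0.28 to -0.02 and an edgeR adjusted p of 0.254, and -0.12 ± 0.09 (SE) in the 668-day mice. Gnat1 had 15947, 19009.5, 16148 and 19253 CPM in old controls and a lowest value of 14462, a median of 15793 and a highest value of 17928 CPM on NACET. Its old controls fell into a lower and a higher pair, and the NACET range reached from below the lower pair to between the pairs. The log2 fold change of Gnat1 was -0.15 ± 0.07 (SE), with a 95% interval of -0.31 to 0.01 and an edgeR adjusted p of 0.366, and -0.19 ± 0.10 (SE) in the 668-day mice.

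Of the phosphodiesterase subunits, Pde6a differed by -0.14 ± 0.07 (SE), with a 95% interval of -0.28 to 0.0024 and an edgeR adjusted p of 0.355. Pde6b and Pde6g differed by 0.05 and -0.04, the channel subunits by -0.03 and -0.07, and Rcvrn by -0.08. Their 95% intervals all included 0, and the widest of these reached from -0.26 to 0.11 (Rcvrn). In the 668-day mice all 9 genes apart from Sag were below 0, with a median of -0.12, and 0 were called. Old NACET replicate 1, the library with lens RNA, had the lowest summed level of the 9 genes, and without it the estimates ran from -0.13 to 0.23, again with 0 called. Without old control replicate 4, 5 estimates were below 0, the median was -0.01 and 0 genes were called.

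In young mice the estimates for NACET ran from -0.16 (Cnga1) to 0.07 (Sag), and 8 of the 9 were below 0. Their median was -0.03, against -0.0045 over all 16588 genes. The sign of the Cnga1 estimate rested on young control replicate 1. Without that library Cnga1 was at 0.02, Sag at 0.17 and the median at 0.02, with 6 of the 9 above 0. Without young NACET replicate 4 the median was also at 0.02, with 5 of the 9 above 0. With the age in the title as a covariate the median was -0.0020, with 4 of the 9 above 0. None of the 9 genes and no other gene was called by edgeR (0%) or by DESeq2. At an unadjusted edgeR p under 0.05 there were 0 of the 9 and 724 genes, which is 4.36%, and 0 of the 9 and 0.723% of genes had CPM ranges that did not overlap. Sag had a lowest value of 5989, a median of 6849 and a highest value of 7658 CPM in young NACET mice, a range within which 3 of the 4 young controls fell. Grk1 had a lowest value of 2625, a median of 2999 and a highest value of 3560.4 CPM there, and its log2 fold change was -0.15 ± 0.10 (SE), with a 95% interval of -0.38 to 0.07 and an edgeR adjusted p of 1.00. The intervals of the 9 genes allowed changes between -0.47 (Cnga1) and 0.35 (Sag) on the log2 scale.

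Whether NACET acted differently at the 2 ages was tested as an interaction on all 20 libraries. None of the 9 was called, and the edgeR call was made for 0% of the 16993 genes. At an unadjusted p under 0.05 there were 0 of the 9 and 1052 genes (6.19%), and DESeq2 called 86 genes (0.403%), none of them among the 9. The interaction terms ran from -0.15 (Gnat1) to 0.12 (Cnga1), with 95% intervals reaching from -0.41 to 0.47. For Grk1 the term was -0.0004, with an interval of -0.24 to 0.24, and for Sag it was 0.11, with an interval of -0.22 to 0.44. Without young control replicate 1 the term of Cnga1 was -0.05, that of Sag 0.01 and that of Grk1 0.03, and the terms ran from -0.17 to 0.03.

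Old and young mice were also compared within the NACET groups, with 6 mice on each side. All 9 estimates were below 0 again, with a median of -0.15 against -0.0013 over all 16276 genes, of which 50.4% were below 0. Scaled by total gene counts only, 8 of the 9 were below 0, with a median of -0.10. None of the 9 was called in the main fit, where 4.88% of all genes were, 2.64% in the lower direction. Gnat1, Pde6g and Sag passed an unadjusted p under 0.05, all lower, against 21.1% of all genes in either direction and 10.7% in the lower direction. The CPM ranges overlapped for all 9, and 4.07% of all genes did not overlap.

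Gnat1 had a lowest value of 17194, a median of 18282 and a highest value of 22013 CPM in young NACET mice, against the 14462 to 17928 CPM of old NACET mice. The old range lay lower and met the young one only at its top. The means were 18913 ± 1885 CPM (SD, n = 6) and 15928 ± 1382 CPM (SD, n = 6), and the log2 fold change was -0.30 ± 0.09 (SE), with a 95% interval of -0.50 to -0.10 and an edgeR adjusted p of 0.0725. Gnat1 was called in this comparison by DESeq2 (adjusted p = 0.0109, where 7.28% of all genes were called), in an edgeR fit of all 4 groups (adjusted p = 0.0292) and in the edgeR fit without young NACET replicate 4 (log2 fold change -0.35, adjusted p = 0.0369). That library had the lowest Gnat1 level of its group, at 17194 CPM. It also had 539 CPM of the corneal list, the highest in its group, and a link between these was not tested. Over the 28 alternatives the edgeR adjusted p of Gnat1 reached 0.316. In libraries without Xist only, 0 of the 9 genes were called, with a smallest edgeR adjusted p of 0.0912. With the replicate block 0 were called, with a smallest edgeR adjusted p of 0.215.

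Pde6g, with a lowest value of 2036, a median of 2229 and a highest value of 2719.8 CPM in young and 1777 to 2336 CPM in old NACET mice, differed by -0.27 ± 0.09 (SE), with a 95% interval of -0.46 to -0.07 and an edgeR adjusted p of 0.103. DESeq2 called it (adjusted p = 0.0475). Sag differed by -0.24 ± 0.10 (SE), with a 95% interval of -0.44 to -0.03 and an edgeR adjusted p of 0.172. Grk1 again lay closest to 0, with 2625 to 3560.4 CPM in young and 2906 to 3522 CPM in old NACET mice and a log2 fold change of -0.01 ± 0.09 (SE), with a 95% interval of -0.19 to 0.18 and an edgeR adjusted p of 0.979. The remaining estimates were -0.14 (Pde6a), -0.13 (Pde6b), -0.10 (Cnga1), -0.15 (Cngb1) and -0.17 (Rcvrn). Against the old NACET mice of 668 days alone the median was -0.25, against those of 574 and 581 days it was -0.12, and none of the 9 was called in either.

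The 9 genes together took 4.18% ± 0.234 (SD, n = 4) of gene counts in young controls, 4.14% ± 0.403 (SD, n = 6) in young NACET, 3.84% ± 0.290 (SD, n = 4) in old control and 3.68% ± 0.302 (SD, n = 6) in old NACET libraries. The ranges were 3.86% to 4.42%, 3.72% to 4.74%, 3.51% to 4.11% and 3.29% to 4.07% and overlapped throughout. Across the 20 libraries the summed share was lower where the share of reads outside annotated genes was higher (Pearson r = -0.71) and where the summed level of 8 Muller glia genes was higher (r = -0.60), and it was higher where that of 10 cone genes was higher (r = 0.73). All of these are shares of the same libraries and are given as descriptions. Reads outside annotated genes made up 14.3% to 19.5% in young controls and 18.4% to 19.7% in old controls and their part in the lower old levels was not tested. The pigment epithelium list (r = -0.02) and the corneal list (r = -0.03) had values near 0, and it was -0.42 for the lens list, which 1 library dominated, and -0.41 for the bipolar list.

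Ratios between the 9 genes within a library do not depend on the scaling between libraries, and some of them separated groups that no single gene separated. In old mice, the ratio of counts per kb of 5 of the 36 pairs did not overlap between NACET and control libraries, which is 13.9%, against 7.15% of 8515 pairs among the 131 genes at least as abundant as Cngb1. In the other comparisons 1 of 36 pairs did not overlap (2.78%), against 11.6% of pairs in ageing, 1.98% for NACET in young mice and 11.9% for age under NACET. The pairs share genes, and this count was made after the values were seen.

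Of the 5 pairs, 4 held Pde6a, the alpha catalytic subunit. Its ratio to Pde6b, the beta subunit with which it forms the catalytic dimer, was 1.49 ± 0.0515 (SD, n = 4) in the control and 1.31 ± 0.0577 (SD, n = 6) in the NACET libraries of old mice. The controls ran from 1.44 to 1.55 and the NACET mice from 1.25 to 1.40. The young groups were at 1.38 ± 0.0595 (SD, n = 4) and 1.31 ± 0.0813 (SD, n = 6) and overlapped. The ratio of Pde6a to Sag was 1.55 ± 0.0894 (SD, n = 4) without and 1.24 ± 0.0823 (SD, n = 6) with NACET in old mice, with ranges of 1.42 to 1.63 and 1.13 to 1.36. The NACET mice of 668 days ran from 1.28 to 1.36. Cnga1 to Pde6a (0.261 to 0.281 in controls, 0.281 to 0.305 on NACET) and Cngb1 to Pde6a (0.137 to 0.142 and 0.142 to 0.152) separated only by a narrow gap. With the NACET mice held to the 2 of 668 days, the ranges of all 5 pairs again did not overlap those of the controls.

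The pair without Pde6a was Gnat1 to Sag, transducin to arrestin, at 13.4 ± 1.14 (SD, n = 4) without and 10.7 ± 0.835 (SD, n = 6) with NACET in old mice, with ranges of 12.3 to 14.9 and 9.63 to 11.8. The NACET mice of 668 days ran from 11.2 to 11.8, the end of their range nearest the controls. As parts of the summed counts of the 9 genes, Gnat1 made up 45.8% ± 1.51 (SD, n = 4) without and 43.3% ± 0.931 (SD, n = 6) with NACET in old mice, and Sag 13.8% ± 0.838 (SD, n = 4) without and 16.5% ± 0.969 (SD, n = 6) with it. The values are descriptions of single ratios and were given no test.

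**Figure D3:**
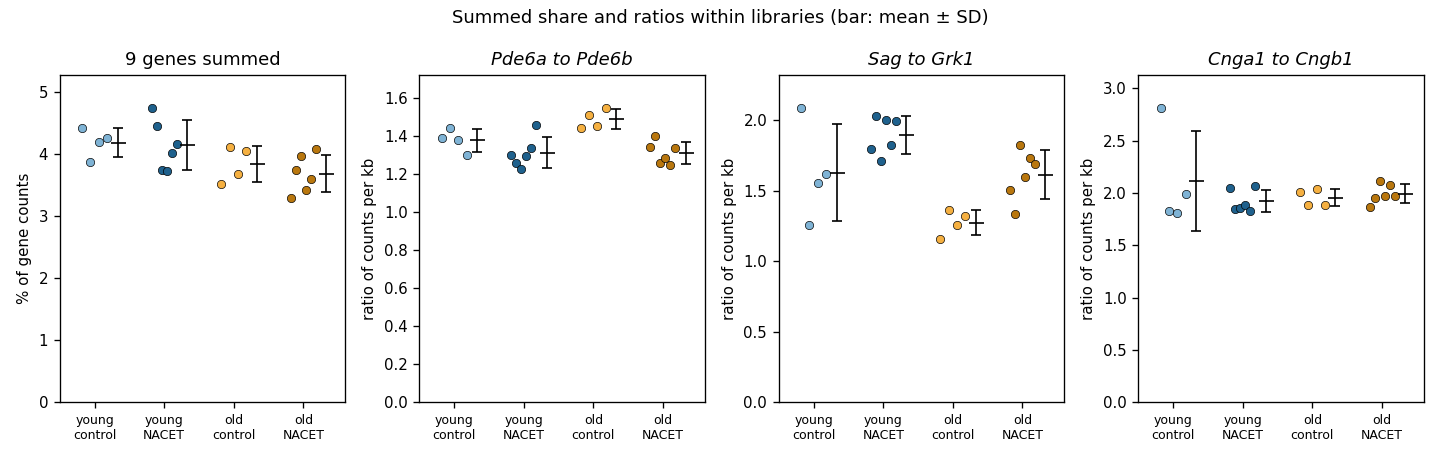
Summed share of the 9 genes in percent of gene counts (left) and 3 ratios of counts per kb within a library (Pde6a to Pde6b, Sag to Grk1, Cnga1 to Cngb1), 1 point per library with the group mean and SD as a bar. Old control and old NACET libraries did not overlap for Pde6a to Pde6b, and 1 young control lay far above the others for Cnga1 to Cngb1.

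Sag to Grk1, the 2 proteins that act in turn on activated rhodopsin, was 1.63 ± 0.344 (SD, n = 4) in young controls, 1.89 ± 0.134 (SD, n = 6) in young NACET, 1.27 ± 0.0887 (SD, n = 4) in old control and 1.61 ± 0.174 (SD, n = 6) in old NACET mice. Within old NACET mice it ran from 1.34 to 1.50 at 668 days, 1.59 to 1.82 at 581 days and 1.69 to 1.73 at 574 days, against 1.16 to 1.36 in the old controls, all 668 days old. The old control and old NACET ranges met at their ends. Pde6g to the sum of Pde6a and Pde6b was 0.659 ± 0.0515 (SD, n = 4) in young and 0.578 ± 0.0484 (SD, n = 4) in old controls, with 0.644 ± 0.0629 (SD, n = 6) and 0.585 ± 0.0231 (SD, n = 6) on NACET. The young and old controls overlapped at 0.614 to 0.726 and 0.517 to 0.635. For age in controls the pair that did not overlap was Pde6a to Pde6g, at 0.801 to 0.948 in young and 0.957 to 1.15 in old mice.

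The channel ratio, Cnga1 to Cngb1, was 1.92 ± 0.107 (SD, n = 6) in young NACET, 1.96 ± 0.0830 (SD, n = 4) in old control and 1.99 ± 0.0908 (SD, n = 6) in old NACET mice. In young controls it was 2.11 ± 0.478 (SD, n = 4), with replicate 1 at 2.82 and a group minimum of 1.81. Gnat1 to Gnat2, rod to cone transducin alpha, was 100.2 ± 12.3 (SD, n = 4) and 99.0 ± 7.22 (SD, n = 6) in the young and 102 ± 9.00 (SD, n = 4) and 97.4 ± 4.57 (SD, n = 6) in the old groups, and all 4 ranges overlapped.

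Across the 20 libraries the genes mostly varied together. Over the 36 pairs the median Pearson r of log2 CPM was 0.69, and with group means removed it was 0.73. With TMM scaling in place of total counts the median was 0.80. The closest pair was Pde6b and Sag (r = 0.89), followed by Gnat1 and Pde6g (r = 0.86) and by Pde6a and Cngb1 (r = 0.86). Grk1 stood apart, with a mean r of 0.26 to the others, and it was lowest with Sag (r = -0.14) and Pde6g (r = 0.10). The negative sign with Sag depended on the scaling: with TMM these r were 0.20 and 0.38, and with group means removed 0.27 and 0.21. With group means removed, the mean r of Grk1 was 0.41, again the lowest of the 9. Without Grk1, the lowest of the 28 pairs was Pde6a with Sag at 0.49. These correlations are over 20 libraries that share depth, dissection and scaling, and they carry no test.

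**Figure D4:**
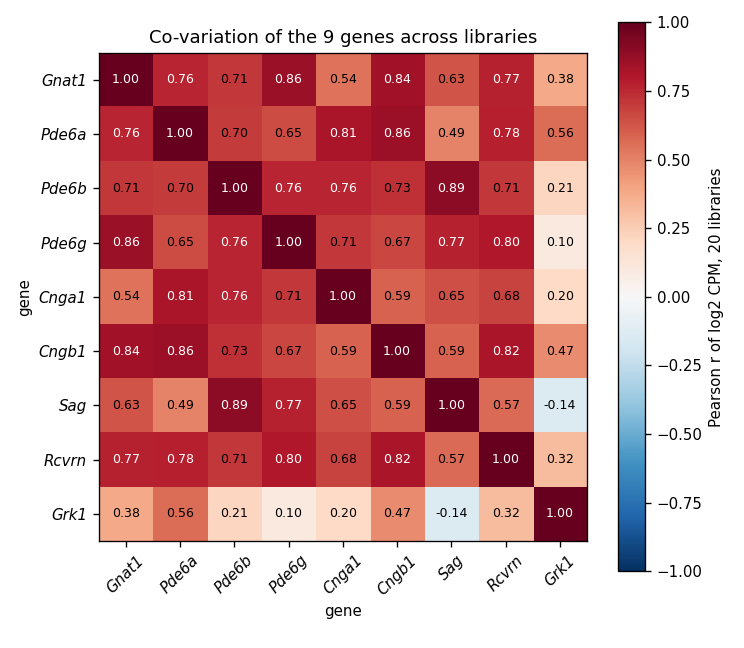
Pearson r of log2 CPM for each pair of the 9 genes over 20 libraries, both axes listing the genes, from blue (negative) through white (0) to red (positive). The row of Grk1 is the palest, from -0.14 with Sag to 0.56 with Pde6a.

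Within groups the genes varied unevenly. The SD of log2 CPM within groups was 0.21 for Cnga1, 0.20 for Sag, 0.19 for Rcvrn and 0.19 for Pde6g, at the 94.7, 93.1, 90.1 and 89.3 percentile of the 131 genes as abundant, whose median was 0.13. Cngb1 and Grk1 varied least, at 0.13 and 0.14.

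The genes whose level followed the mean of the 9 most closely, among 10356 other genes of at least 10 CPM, were Nxnl1 (rod-derived cone viability factor, r = 0.96), Rtbdn (r = 0.96), Slc24a1 (the rod sodium-calcium-potassium exchanger, r = 0.96) and Aipl1 (the chaperone of the phosphodiesterase, r = 0.96). Agpat3, Vtn, Laptm4b, Csda, Tulp1 and Abca4, the last a lipid transporter of the outer segment disc, came next, down to r = 0.94. The likeness is the Pearson r of TMM-scaled log2 CPM with the mean standardized level of the 9 genes over 20 libraries. The median r was 0.87 over 10 outer segment genes, 0.84 over 5 genes of phosphodiesterase assembly and transport, 0.80 over 11 other genes of rod transduction and 0.73 over 10 cone genes. It was -0.12 for Muller glia and -0.22 for bipolar genes.

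Estimates for other genes of the pathway were mostly below 0 in both age comparisons, and few were called. Of 11 further rod transduction genes, 0 were called in ageing, in either NACET comparison or in the interaction, and 1 was lower under NACET in old against young mice. In ageing 9 of the 11 estimates were below 0, with a median of -0.14. Gucy2e, a guanylate cyclase that restores cyclic GMP, was at -0.14 ± 0.07 (SE, edgeR adjusted p = 0.359) and Slc24a1 at -0.16 ± 0.08 (SE, edgeR adjusted p = 0.376). For NACET in old mice the median was -0.06, with Rgs9bp, the anchor of the transducin-deactivating complex, at -0.15 ± 0.05 (SE, edgeR adjusted p = 0.214) and Gnb1, the transducin beta subunit, at -0.15 ± 0.06 (SE, edgeR adjusted p = 0.264). In old against young NACET mice Pdc (phosducin, which binds transducin beta-gamma) was lower, with a log2 fold change of -0.71 ± 0.13 (SE, edgeR adjusted p = 0.00537), a call that held in all 12 fits with 1 library left out. In ageing without treatment Pdc was at -0.23 ± 0.18 (SE, edgeR adjusted p = 0.568). For NACET it was at -0.30 ± 0.12 (SE, edgeR adjusted p = 0.278) in old mice and at 0.17 ± 0.18 (SE) in young mice, and it was not called in either.

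Of 5 genes for assembly and transport of the phosphodiesterase and its partners, 0 were called in ageing and for NACET in old mice. Reep6, which serves trafficking to the outer segment, was at -0.27 ± 0.09 (SE, edgeR adjusted p = 0.171) in ageing and -0.19 ± 0.08 (SE, edgeR adjusted p = 0.326) for NACET in old mice, Aipl1 at -0.18 ± 0.08 (SE, edgeR adjusted p = 0.299) in ageing and Rd3, a regulator of guanylate cyclase, at -0.14 ± 0.06 (SE, edgeR adjusted p = 0.269) for NACET in old mice. Reep6 was lower in age under NACET, at -0.44 ± 0.09 (SE, edgeR adjusted p = 0.00984), the 1 call of the 5. Of 10 outer segment genes, 0 were called in ageing and for NACET in old mice. In ageing, Rp1l1, which binds the microtubules of the axoneme, was at -0.26 ± 0.08 (SE, edgeR adjusted p = 0.126) and Prom1 at -0.28 ± 0.10 (SE, edgeR adjusted p = 0.189). For NACET in old mice, Impg1, a proteoglycan of the matrix around photoreceptors, was at -0.17 ± 0.07 (SE, edgeR adjusted p = 0.311) and Prph2, a disc rim protein, at -0.13 ± 0.06 (SE, edgeR adjusted p = 0.361). In age under NACET 1 of 10 was lower, Prom1, a protein of nascent discs, at -0.31 ± 0.08 (SE, edgeR adjusted p = 0.0336), and this call was lost in 7 of 12 fits with 1 library left out.

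Of 10 cone genes, 0 were called in ageing, where Opn1mw, the middle-wavelength cone opsin, was at -0.57 ± 0.13 (SE, edgeR adjusted p = 0.0554) and Gnat2 at -0.21 ± 0.10 (SE, edgeR adjusted p = 0.340). For NACET in old mice 1 of 10 was called: Arr3, the cone arrestin and counterpart of Sag, was higher at 0.41 ± 0.08 (SE, edgeR adjusted p = 0.0456). The call of Arr3 was lost in 8 of 10 fits with 1 library left out, among them the one without old control replicate 4, and in the 668-day mice alone, with log2 fold changes of 0.36 to 0.51 over the former. In the same comparison Opn1sw, the short-wavelength opsin, was at -0.38 ± 0.11 (SE, edgeR adjusted p = 0.135). In age under NACET 2 of 10 were lower, Opn1mw at -0.57 ± 0.10 (SE, edgeR adjusted p = 0.00256) and Gnat2 at -0.28 ± 0.07 (SE, edgeR adjusted p = 0.0294), the latter lost in 4 of 12 fits with 1 library left out. With the old NACET mice held to those of 668 days, every one of these calls in age under NACET other than that of Pdc was lost. No gene of these lists was called for NACET in young mice or for the interaction. The estimate of Arr3 for NACET in young mice was 0.39 ± 0.11 (SE), near that in old mice.

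Genes of neighbouring tissues were called in the same comparisons. For NACET in old mice, 3 of the 7 corneal genes tested (9 were listed) were lower, against 0.284% of all genes. They were Dsp at -4.62 ± 0.92 (SE, edgeR adjusted p = 0.0456), Krt5 at -4.61 ± 0.93 (SE, edgeR adjusted p = 0.0456) and Krt12 at -4.64 ± 0.95 (SE, edgeR adjusted p = 0.0489). Each of the 3 calls was lost in 8 of 10 fits with 1 library left out, the one without old control replicate 2 among them. Summed, the corneal list ran from 14.9 to 596 CPM in old controls and 3.74 to 31.9 in old NACET mice. In age under NACET 5 of the 7 tested were lower, against 2.64% of all genes. They were the same 3 with Krt15 at -4.93 ± 1.10 (SE, edgeR adjusted p = 0.0151) and Aldh3a1 at -3.34 ± 0.86 (SE, edgeR adjusted p = 0.0353), and the list ran from 7.16 to 539 CPM in young NACET mice. With 1 library left out, the call of Aldh3a1 was lost in 7 of 12 fits and that of Krt12 in 2. Of 10 pigment epithelium genes 2 were lower there, Slc16a8 at -1.03 ± 0.23 (SE, edgeR adjusted p = 0.0139) and Ttr at -0.92 ± 0.25 (SE, edgeR adjusted p = 0.0417), and of 8 Muller glia genes 1, Car14 at -0.28 ± 0.08 (SE, edgeR adjusted p = 0.04999). The calls of Ttr and Car14 were lost in 6 and 7 of 12 such fits. The pigment epithelium list ran from 102 to 202 CPM in young and 38.6 to 130.0 CPM in old NACET mice. Removing the pigment epithelium, lens and corneal genes before scaling left 0 of the 9 rod genes called in all 5 comparisons, as before the removal. That count cannot show whether RNA of these tissues entered the estimates of the 9 genes.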

How the data were processed

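The authors made TruSeq libraries from polyA RNA, sequenced single ends, aligned reads to mm9 with TopHat2 2.1.0 and counted reads per gene with HTSeq 0.11.2 without regard to strand, and the annotation was not given in the sources used here. The deposited values are raw counts, with 6 rows that name no gene (14.1% to 20.5% of reads lay outside annotated genes) left out of library sizes. Depth was 17.7 to 31.1 M gene counts (M, 1e+06). No files were duplicates: over 42 pairs within groups the chi-square per degree of freedom was 2.63 to 34.7. Ribosomal RNA genes, dropped by the study, were kept.

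Groups, ages and sexes came from the labels. Each comparison was fitted on its 2 groups, and the interaction on all 20 libraries, with edgeR 4.0.16 in R 4.3.3 (TMM, filterByExpr, quasi-likelihood test, Benjamini-Hochberg adjustment over all genes tested). Calls needed an adjusted p under 0.05 and no minimum fold. p-values measure the spread between mice. CPM is counts scaled to 1e+06 gene counts, and log2 CPM for correlations had a prior count of 1. Lengths and positions came from the GENCODE vM1 annotation of mm9, counted from 1, and promoters from RefSeq.

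The 9 genes, the gene lists, tests and alternatives were chosen with earlier results of these data known. Named were the 9 genes, every called gene of the other lists, otherwise the 2 of smallest p in 4 photoreceptor lists in ageing and in NACET in old mice, and the 10 most like genes (the 5 least like, also in the rule, are not reported here). Alternatives were other normalizations and filters, DESeq2 1.42.0, a robust fit, each library left out, replicate block, sex, age and cohort as covariates or subsets, all groups in one fit, and gene lists removed.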

Additional observations from a re-analysis of the deposited data

Results flagged for a closer look

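In 40 sets of libraries (the 9 genes and their summed share in 4 groups), 2 held a library set apart from the rest of its group by Dixon's test, and chance alone gives about 2 in 40. Gnat1 was at 17926 CPM in young control replicate 2, where the next library had 19135. Rcvrn was at 1075.46 CPM in old control replicate 4, where the next library had 905, and this is the library labelled male that held Xist counts. The estimate for Rcvrn in ageing was -0.10 with it and -0.18 without it.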

How the results depend on the processing

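None of the 9 genes was called by edgeR in any comparison. That count stayed at 0 under every alternative run for ageing, both NACET comparisons and the interaction. In age under NACET it was 2 with DESeq2, 1 with all 4 groups in one fit, and 0 to 1 when each library was left out, the 1 being without young NACET replicate 4. Estimates changed sign in 11 of 198 values for ageing, 9 of 225 for NACET in old mice, 27 of 234 for NACET in young mice, 8 of 252 for age under NACET and 23 of 297 for the interaction. After the change none of these values was larger in size than 0.07 on the log2 scale, and none was called. The main estimates that changed sign could be larger. Without young control replicate 1, Cnga1 moved from -0.16 to 0.02 for NACET in young mice and from 0.12 to -0.05 in the interaction. Over all genes the number called moved more: 234 in ageing became 721 with DESeq2 and 72 in libraries without Xist, 90 for NACET in old mice became 375 with DESeq2 and 0 in the 668-day mice, and 795 in age under NACET became 1326 with DESeq2 and 151 with old NACET mice of 668 days only. For NACET in young mice, 0 became 8 without young control replicate 4. The cause was not tested.

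Replicate numbers did not pair the samples, which are separate mice: same-numbered libraries correlated at -0.157 to 0.123 after group means were removed. With the replicate block, 0 of the 9 genes were called in all 5 comparisons. The counting error of these genes was at most 0.963%, and each group held 4 to 6 mice.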
